A study of Urocitellus parryii with 3 samples.

Results

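The hepatocyte miRNA miR-122 was followed through the hibernation year of the arctic ground squirrel, Urocitellus parryii, on liver RNA hybridised to mouse miRNA microarrays, where it is the entry mmu-miR-122. It is 1 of 567 mouse miRNA entries on each array, and it was chosen by its name on the spots that are not controls. It is also 1 of the 135 entries called measured here, which means that at least 1 probe of the entry was detected on all 3 arrays. The stages compared were late torpor, early arousal and post-reproduction. RNA of animals at the same stage was mixed into 1 pool per stage and each pool was hybridised to 1 array, so the differences between stages carry no replicate check and were not tested. The sources used here do not say how many animals went into a pool, nor their age or sex. Fewer cells of a type and less RNA per cell cannot be told apart in such pools, and stage, pool and array cannot be told apart either.

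miR-122 is the characteristic miRNA of hepatocytes, the cells that make up most of the liver's mass. Like other miRNAs it guides an Argonaute protein to messenger RNAs that pair with its seed, and those messages are repressed. It is transcribed from its own gene under liver transcription factors such as HNF4A, it is known for its part in cholesterol and fatty acid metabolism, and its mature form in liver carries variable 3′ ends, some with an adenosine added by the poly(A) polymerase GLD-2.

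Each array held 20 miR-122 spots, 10 for each of 2 probes. Both probes are directed at the same stretch of mouse chromosome 18 in the mm9 build that the files name. One has a target of 19 bases (chr18:65408523-65408541) and the other a target of 20 bases (chr18:65408522-65408541), so they differ by 1 base at 1 end. No gene annotation of that build was used here.

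The probe with the 19-base target had its highest mean and median in late torpor. Its kept spots ran from 22828 to 25258 intensity units there, with a median of 24308 and a mean of 24317 ± 837 (SD, 9 spots). In early arousal they ran from 20641 to 22052, with a median of 21465 and a mean of 21422 ± 449 (9 spots). In post-reproduction they ran from 21704 to 25595, with a median of 23070 and a mean of 23394 ± 1414 (10 spots). The kept late torpor and early arousal spots did not overlap, while the post-reproduction spots overlapped with those of both other arrays. The missing spot in late torpor (27422) and in early arousal (23465) was marked as a population outlier by the scanner program, was the same array position on both, and was brighter than every kept spot of its array. The same position was also the brightest in post-reproduction, where it was not marked. The marked early arousal spot lies within the late torpor range, so the lack of overlap depends on leaving it out. How many other probes separate in this way was not counted.

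The probe with the 20-base target was brighter, and its mean and median were again highest in late torpor. Its 10 spots ran from 51785 to 66181 there, with a median of 59354 and a mean of 59409 ± 5012 (SD). In early arousal they ran from 45437 to 55109, with a median of 52394 and a mean of 51255 ± 3649. In post-reproduction they ran from 46636 to 53534, with a median of 50007 and a mean of 49887 ± 2857. Spots of all 3 arrays overlapped in range. The arrays share 1 layout, however, and position by position the late torpor spot was above the post-reproduction spot at 10 of 10 positions for this probe and at 9 of 9 for the other. Early arousal was below late torpor at 10 of 10 and 9 of 9. Early arousal against post-reproduction went opposite ways in the 2 probes, with early arousal higher at 8 of 10 positions for the 20-base target and lower at 8 of 9 for the 19-base target. After the scaling described below, early arousal was higher at 10 of 10 and at 6 of 9 positions, so the opposite directions depend on leaving the arrays unscaled. Except where scaling is named, these counts are of deposited intensities without scaling between arrays, and positions on 1 array are not samples. How many other probes behave alike was not counted. Without scaling, the median of the measured miRNAs differed by -0.059 (log2) for late torpor minus post-reproduction. For early arousal minus late torpor it differed by -0.089.

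**Figure D1:**
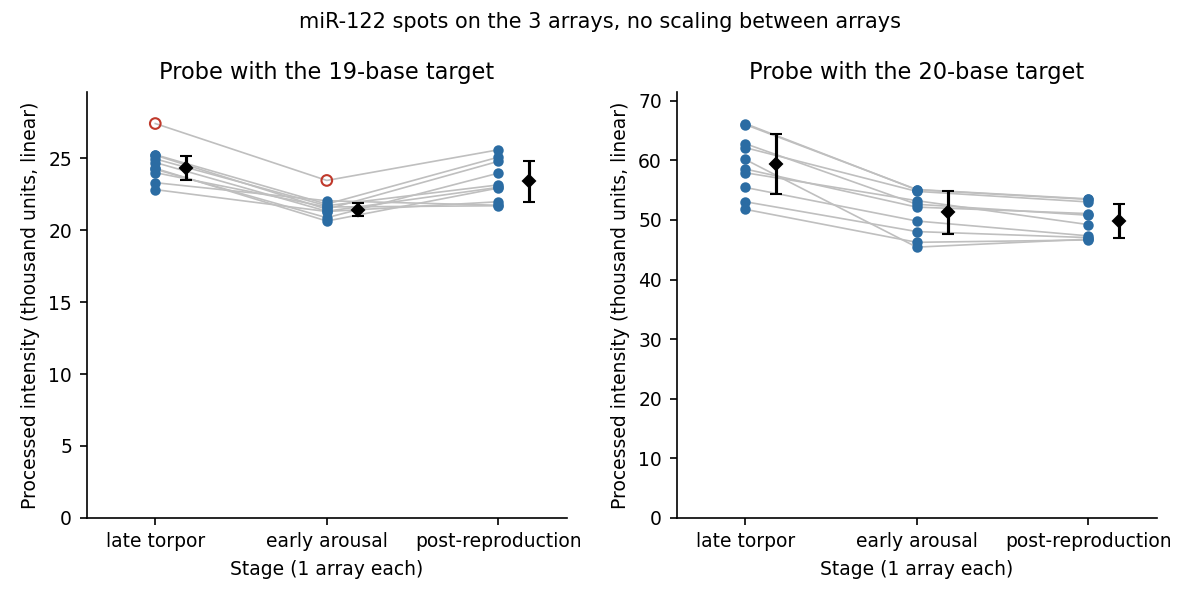
Processed intensity of each miR-122 spot on a linear axis, by stage, for the probe with the 19-base target (left) and the probe with the 20-base target (right). Blue points are kept spots, open red points are the 2 spots marked as outliers, grey lines join the same position on the 3 arrays, and black diamonds with bars are the mean ± SD of kept spots; late torpor is highest by mean for both probes, and early arousal is lowest for 1 and in between for the other.

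The ratio of the probes was not the same on every array. The 20-base probe read 2.44 times the 19-base probe in late torpor (95% interval from spots 2.30 to 2.58) and 2.39 times in early arousal (2.28 to 2.50). In post-reproduction it read 2.13 times (2.03 to 2.25). The late torpor and early arousal ratios differed by a log2 value of 0.029, within the spread of spots. The post-reproduction ratio was lower than that of late torpor by more than that spread, with a difference between the probes of 0.19 ± 0.06 (log2, SE from spots). For early arousal against post-reproduction it was 0.16 ± 0.05. Disagreements of that size also occurred in other miRNAs with at least 2 measured probes, but those of miR-122 were among the larger ones. miR-122 ranked 12th of 105 such entries by the range of its probes' differences in the first of these comparisons and 20th in the second, where the median ranges were 0.063 and 0.073.

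miR-122 was read in a way that no other miRNA entry was. The arrays were scanned for an extended dynamic range, in which very bright spots are taken from a low-gain reading and multiplied up to the scale of the high-gain reading. On each array 20 of 11540 miRNA spots came from the low gain, and all 20 were miR-122 spots. The slope used for them was 20.5 for late torpor, 20.3 for early arousal and 20.3 for post-reproduction. With 1 common slope and intercept for all arrays, an alternative chosen after seeing the data, the difference between late torpor and post-reproduction was 0.33 in place of 0.34. No miRNA spot was saturated, and the brightest miR-122 spot stood at 4.96% of the saturation value in late torpor, 4.17% in early arousal and 4.04% in post-reproduction. The viral entries, which serve as background here, reached 18.2 to 23.4 intensity units at most on the 3 arrays, against 20641 for the lowest miR-122 spot of all.

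Positive control spots named hur_2, which were read at the low gain on all arrays, were also not equal between arrays. Their mean was 74449 ± 5205 (SD, 20 spots) in late torpor, 67196 ± 3878 in early arousal and 58304 ± 4157 in post-reproduction. The sources used here do not say what these spots bind. Late torpor is highest in them as in miR-122, and their part in the miR-122 differences was not tested beyond the alternative scaling on them given with each comparison.

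For the comparisons, log2 intensities were averaged over the kept spots of a probe, the 75th percentile of the array was subtracted, taken over the 250 probes that were detected on every array, and both miR-122 probes were averaged. The percentile stood at 349 intensity units in late torpor, 350.4 in early arousal and 398 in post-reproduction. The scaled log2 level of miR-122 was then 6.76 in late torpor, 6.56 in early arousal and 6.42 in post-reproduction. Before scaling the order of the last 2 was the other way, since the geometric mean over both probes was 37937 intensity units in late torpor, 34109 in post-reproduction and 33094 in early arousal. A miRNA counted as past the rule of size where it differed by at least 2-fold, by more than 2 SE and with the same sign in each measured probe. miR-122 met this rule in no comparison.

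Late torpor against post-reproduction asked how the torpid liver differs from the liver outside the hibernation season. miR-122 was higher in late torpor by 0.34 ± 0.03 on the log2 scale (SE from spots), a fold of 1.27 with a 95% interval from spots of 1.22 to 1.32. The 19-base probe gave 0.25 ± 0.03 and the 20-base probe 0.44 ± 0.05, so both were higher but by different amounts. Of the 135 measured miRNAs, 3 (2.22%) passed the rule of size. miR-122 ranked 38th from the highest, close to the upper quartile of 0.36 and above the median of 0.13. The value was 0.086 after scaling on the total intensity and turned to -0.048 with an all-probe percentile without a floor and to -0.20 when scaled on the hur_2 spots. It was 0 after quantile normalization, which gives the 2 brightest probes of every array the same values.

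Early arousal against post-reproduction asked how the rewarming liver differs from the liver outside hibernation. miR-122 stood at 0.14 ± 0.03, a fold of 1.10 with an interval of 1.07 to 1.14. The 19-base probe gave 0.060 ± 0.03 and the 20-base probe 0.22 ± 0.04. In the same comparison 5 of 135 measured miRNAs passed the rule of size (3.7%), and miR-122 ranked 55th from the highest, near the median of 0.062. The sign did not hold across processing. It was below 0 under 5 of 15 alternatives, among them the scaling on the hur_2 spots (-0.25) and no scaling (-0.044). Without scaling the probes took opposite signs, with -0.12 for the 19-base and 0.038 for the 20-base target.

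Early arousal against late torpor compared the 2 stages within the hibernation season. miR-122 was lower in early arousal by a log2 difference of -0.20 ± 0.03, a fold of 0.869 with an interval of 0.837 to 0.902. Here the probes gave close values of -0.19 ± 0.02 and -0.22 ± 0.05. Of the measured miRNAs, 4 of 135 passed the rule of size (2.96%), and miR-122 ranked 92nd from the highest, below the median of -0.094. The difference was -0.050 when scaled on the median of detected probes or on the hur_2 spots and 0.0069 with the all-probe percentile without a floor. It was below 0 under 13 of 15 alternatives, and it was 0 after quantile normalization.

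Set in order, late torpor had the highest miR-122 value under 11 of 14 processing settings, the reported one included. Post-reproduction was highest under 2, and all stages were equal after quantile normalization. The lowest place was less settled, with post-reproduction lowest under 8 settings, early arousal under 4 and late torpor under 1. The sequence of early arousal and post-reproduction thus depended on the setting. Several settings are close variants of the reported one. For late torpor minus post-reproduction, normexp, the median of spots, kept outliers and the common calibration gave 0.32, 0.37, 0.35 and 0.33. Counts of settings or alternatives therefore do not measure how firm an order or sign is.

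**Figure D2:**
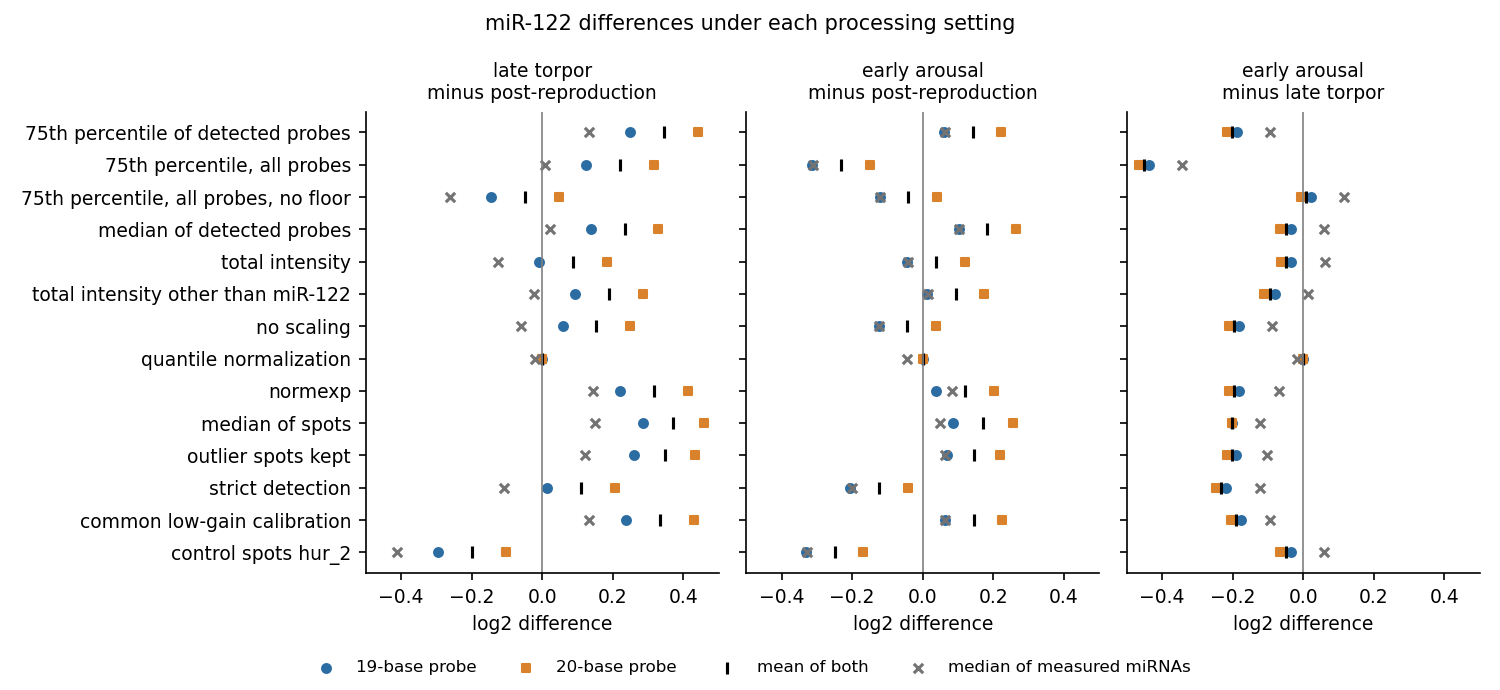
log2 difference of miR-122 in each comparison (panels) under each of 14 processing settings (rows); circles are the 19-base probe, squares the 20-base probe, bars their mean and crosses the median of all measured miRNAs. Late torpor minus post-reproduction runs from -0.20 to 0.37 for the mean of both probes, and the distance between miR-122 and the cross stays the same under the 8 settings that shift whole arrays.

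The distance between miR-122 and the median of all measured miRNAs does not depend on such shifts. It was 0.21 for late torpor against post-reproduction, 0.079 for early arousal against post-reproduction and -0.11 for early arousal against late torpor under each of the 8 settings that move an array as a whole. Under 5 other settings it ran from 0.17 to 0.22, from 0.036 to 0.12 and from -0.13 to -0.079 in the same order. Quantile normalization fixes miR-122 at 0 and says nothing of its place. In late torpor relative to post-reproduction miR-122 thus stood above the median of the measured miRNAs, by 0.21 as reported. The 8 settings that move whole arrays cannot differ in this distance, so their agreement is no check of it. The 5 others can differ and gave 0.17 to 0.22. Among these, normexp, the median of spots, kept outliers and the common calibration are close variants of the reported setting.

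The share of miR-122 in the summed intensity of all mouse entries needs no scaling between arrays. An entry's intensity was here the mean over all its probes, and the share is of light, not of molecules, because probes bind with different strength. miR-122 made up 47.0% of the sum in late torpor (95% interval from spots 46.0 to 47.9), 45.2% in early arousal (44.4 to 46.0) and 43.1% in post-reproduction (42.4 to 43.7). Late torpor exceeded post-reproduction by 3.90 percentage points (2.74 to 5.05) and early arousal exceeded post-reproduction by 2.13 points (1.10 to 3.16). Early arousal differed from late torpor by -1.77 points (-2.99 to -0.543). Each of these differences was larger than the spread of spots, which says nothing of the spread between pools.

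A share moves with miR-122 and with the sum of all other entries. miR-122 intensity in late torpor was 1.14 times that in post-reproduction, while the other entries together were at 0.976 times. In early arousal miR-122 was at 0.992 times its post-reproduction intensity, and the other entries together at 0.910 times. Without scaling between arrays, the higher share in early arousal thus came with a lower sum of the other entries and an almost equal miR-122 intensity. After the reported scaling miR-122 was instead 1.10-fold higher in early arousal. Which of the 2 parts moved therefore depends on the scaling, while the share does not. Between early arousal and late torpor both unscaled values were lower, with ratios of 0.868 for miR-122 and 0.932 for the rest.

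The order of the shares, late torpor, early arousal, post-reproduction, was the same in all 8 other ways of forming the sum, while their size was not. The share was 34.1%, 32.1% and 30.9% in that order with normexp background correction, which adds an offset of 50 to every entry. With the 19-base probe alone the shares were 34.0%, 32.7% and 32.6%, and the last 2 differed by less than the spot error of 0.421 points on the post-reproduction array. With the 20-base probe alone they were 55.7%, 53.8% and 50.7%. Of the single probes, the 20-base one thus held most of the gap between early arousal and post-reproduction.

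**Figure D3:**
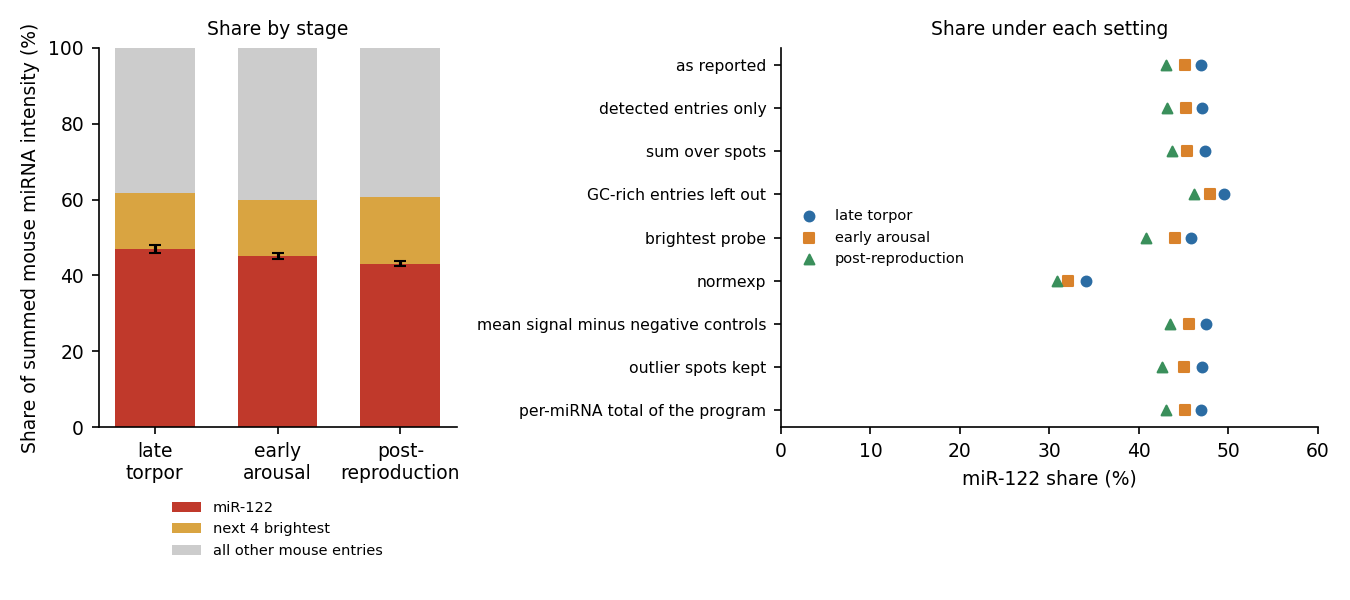
Left, share of the summed mouse miRNA intensity (percent) held by miR-122 (red, bars are 95% intervals from spots), by the next 4 brightest entries of that array (yellow) and by all others (grey). Right, the miR-122 share of each stage as reported and under 8 other ways of forming the sum; late torpor is highest and post-reproduction lowest in each, between 30.9% and 49.5%.

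The next entries in brightness each held a small part of the light, and their order is not one of amounts. On the late torpor array miR-720 followed with 4.65% of the sum, let-7a with 3.68%, miR-451 with 3.40% and let-7f with 2.96%, and these 4 together held 14.7%. In early arousal the next 4 held 14.6% and in post-reproduction 17.6%, with miR-22 in the place of miR-451 on both. miR-720, an entry whose sequence matches a transfer RNA fragment, was the largest of them on each array, and its share was 4.83% in early arousal and 6.25% in post-reproduction.

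Against these bright entries the miR-122 differences can be read without any array scaling. Late torpor against post-reproduction, miR-122 gained on miR-720 by 0.50 ± 0.03 (log2, SE from spots), on miR-22 by 0.45 ± 0.03, on let-7f by 0.33 ± 0.04 and on let-7a by 0.26 ± 0.03. Against miR-451, a miRNA of red blood cells, it stood at -0.90 ± 0.03. In early arousal against post-reproduction miR-122 was again ahead of miR-720 by 0.44 ± 0.03, of miR-22 by 0.23 ± 0.03, of let-7a by 0.20 ± 0.03 and of let-7f by 0.19 ± 0.03, and behind miR-451 by a difference of -0.39 ± 0.03. In early arousal against late torpor it was behind miR-22 (-0.23 ± 0.03), let-7f (-0.14 ± 0.04) and miR-720 (-0.066 ± 0.03) and ahead of miR-451 by 0.51 ± 0.03. For let-7a (-0.056 ± 0.03) the 95% interval reached 0.0082.

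The other miRNAs enriched in hepatocytes did not share 1 profile with miR-122. Of 11 listed entries, all were on the arrays and 7 were measured, miR-122 included. The entries miR-101b, miR-455, miR-802 and miR-215 were detected on no array. Squirrel RNA was read with mouse probes, and the match of sequences was not checked. Lack of detection therefore does not show that these miRNAs are absent from the liver. None of the 7 passed the rule of size in any comparison, where 2.22%, 3.7% and 2.96% of all measured miRNAs did, so a count of 0 among 7 is near that background. The median of the list, miR-122 included, was 0.30 in late torpor against post-reproduction, where that of all measured miRNAs was 0.13. It was 0.16 against 0.062 in early arousal against post-reproduction and -0.033 against -0.094 in early arousal against late torpor. Over the 6 other members without miR-122 the medians were 0.26, 0.19 and 0.012 in the same order. In the last comparison 3 of these 6 were higher in early arousal. miR-122 held 88.1% of the list's summed intensity in late torpor, 86.9% in early arousal and 87.0% in post-reproduction.

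Late torpor against post-reproduction, miR-122 lay close to miR-148a, a miRNA of differentiated hepatocytes, and to miR-101a. Its difference exceeded theirs by -0.029 ± 0.03 and 0.044 ± 0.03, which is within the spread of spots. It was ahead of miR-194 by 0.32 ± 0.04 and of miR-192 by 0.15 ± 0.03, miRNAs that share clusters with each other and are also made in gut and kidney. It was behind miR-193 (-0.12 ± 0.04), whose cluster mate miR-365 it exceeded by 0.11 ± 0.04.

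In early arousal against late torpor miR-122 was within the spread of spots of miR-193 (0.034 ± 0.04) and ahead of miR-148a by 0.19 ± 0.03. It was behind miR-365 (-0.46 ± 0.03), miR-101a (-0.26 ± 0.03), miR-194 (-0.26 ± 0.03) and miR-192 (-0.17 ± 0.03), which is 4 of the 6 other measured members. These contrasts between entries of the same arrays do not move with a scaling that shifts whole arrays. In early arousal against post-reproduction miR-122 was within the spread of spots of miR-192 (-0.015 ± 0.03) and miR-194 (0.057 ± 0.03). It was ahead of miR-148a by 0.16 ± 0.03. It was behind miR-193 (-0.090 ± 0.03) and miR-101a (-0.22 ± 0.03), and furthest behind miR-365 (-0.34 ± 0.03).

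**Figure D4:**
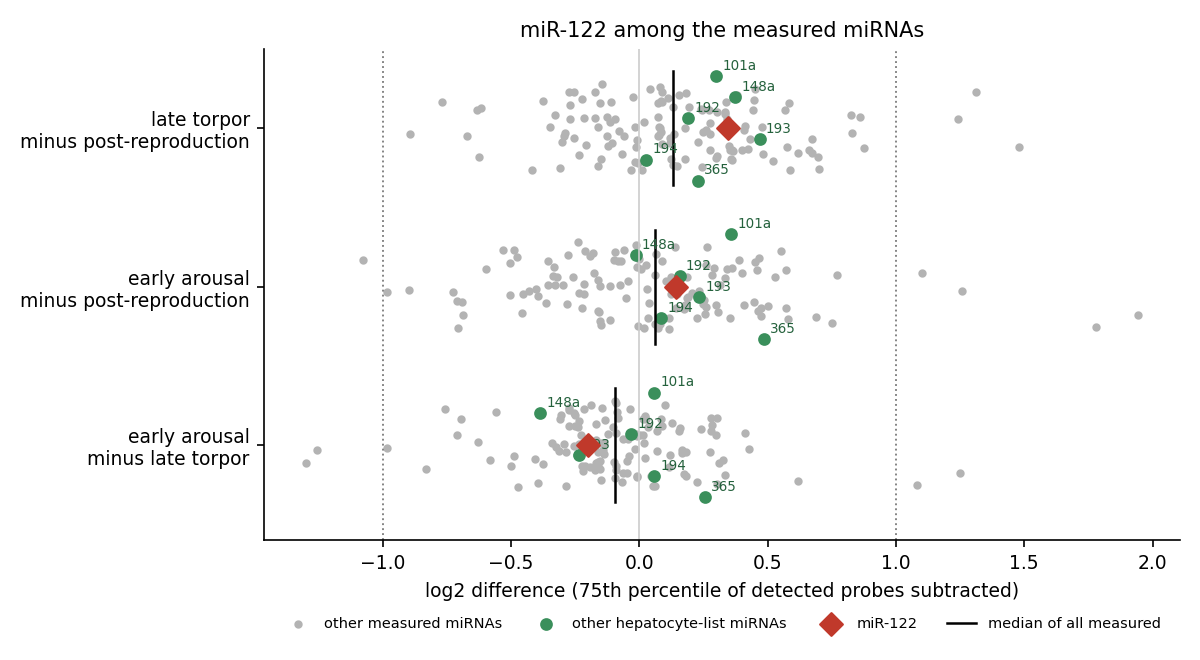
log2 differences of the 135 measured mouse miRNAs in each comparison after scaling on the 75th percentile of detected probes; the red diamond is miR-122, green points are the 6 other measured miRNAs of the hepatocyte list, black bars are medians and dotted lines mark 2-fold. miR-122 lies at 0.34, 0.14 and -0.20 from top to bottom, inside the bulk of the points each time; vertical scatter within a comparison has no meaning.

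The measured entries whose profile lay closest to that of miR-122 were found by the root mean square distance between scaled log2 values over the 3 arrays, each entry centred on its own mean. miR-532-5p was the closest at 0.0052, followed by miR-21 (0.014), miR-652 (0.024), miR-106b (0.027) and miR-99b (0.028), where the median distance over the 134 other entries was 0.16. miR-21, a miRNA that rises in many stress and growth states, was the brightest of these 5. It had 1468 intensity units in late torpor, 1234 in early arousal and 1266 in post-reproduction, with differences of 0.37, 0.17 and -0.19 in the order of the comparisons above. miR-532-5p, miR-652 and miR-99b rested on 1 detected probe each and on no array passed 16.2 intensity units, below the brightest viral background entry, so their likeness is of little weight. With 3 arrays many profiles can lie close together. In the hepatocyte list miR-193 was the nearest, 10th of 134, and miR-365 the farthest, 78th.

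Markers of other cells moved between the same arrays. The 3 red blood cell miRNAs (miR-144, miR-451 and miR-486) were all measured, and their summed intensity was 3223 in late torpor, 1954 in early arousal and 1549 in post-reproduction, or 3.62%, 2.43% and 1.82% of the total. Of the 7 leukocyte entries 6 were measured, with sums of 617, 444 and 505 over the whole list in the same order. The biliary list had 3 of 6 measured, with sums of 179 in both hibernation stages and 230 in post-reproduction. All 4 endothelial entries and all 5 mesenchymal entries on the arrays were measured, with sums of 1174 to 1284 and of 254 to 332. None of the 5 muscle entries was measured. Their summed intensity was 30.1 in late torpor, 16.6 in early arousal and 13.2 in post-reproduction. miR-1, miR-133a and miR-133b were detected in late torpor and not in post-reproduction, with 9.07, 9.10 and 12.6 intensity units against 3.65, 4.80 and 5.84. miR-1 and miR-133b were also detected in early arousal, while miR-206 and miR-208a were detected on no array. All these values lie below the brightest viral entry, at 23.4 in late torpor and 22.1 in post-reproduction, so they are of little weight. The red blood cell, leukocyte, muscle and, by a small margin, endothelial sums were, like miR-122, highest in late torpor, and their part in the miR-122 differences was not tested. The sums are unscaled, and their brightest members weigh most. After the reported scaling 2 of 4 endothelial and 5 of 6 measured leukocyte members were higher in late torpor than in post-reproduction. The others were lower, namely miR-221 (-0.23), miR-222 (-0.42) and miR-146a (-0.27). In the share the red blood cell miRNAs count as other signal, which lowers the miR-122 share most in late torpor.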

How the data were processed

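Total RNA was extracted with TRIzol and pooled by stage, per the labels' protocols, and 100 ng per pool was labelled with Cy3. Scans were processed in Agilent Feature Extraction 9.5.3.1, per the submitters' processing notes. The deposited intensity is the spot signal after a spatial background trend was subtracted, per the file headers, with no local background subtraction and no scaling between arrays. Deposited pixel counts and flags for outliers, saturation, low gain and detection come from the same program, per the file headers, as do other values such as the program's total per miRNA. The authors' deposited series table equalled the scanner intensity at 12493 of 12493 spots on each array.

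Spots marked as outliers were left out. Spots at or below 0 were set to the lowest spot well above background. A probe counted as detected if well above background in more than 50% of its kept spots. Standard errors and 95% intervals come from spots alone and cover neither pools nor animals. They treat the spots of different arrays as independent and take no account of shared positions. The number of arrays limits the precision. Simulated arrays with known changes were used as a check of the calculation. Python 3.11.15 and limma 3.58.1 (normexp) were used. miR-122, the lists and the other named miRNAs (brightest 5 per array, nearest 5 profiles) were chosen with earlier results of these data known. The star strand of miR-122 was not analysed here.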

Additional observations from a re-analysis of the deposited data

How the results depend on the processing

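The miR-122 differences were recomputed under 15 alternatives of scaling, background, spot summary, calibration and probe. Scaled on the 75th percentile of all probes, they were 0.22 for late torpor minus post-reproduction, -0.23 for early arousal minus post-reproduction and -0.45 for early arousal minus late torpor. That percentile lies near background, where spots at or below 0 were set to a floor. The floor was 8.49 intensity units in late torpor, 10.1 in early arousal and 10.7 in post-reproduction, so these values depend by construction on unequal floors. Without the floor in that percentile the differences were -0.048, -0.041 and 0.0069. With the median of detected probes the first and last were 0.23 and -0.050. With the total intensity they were 0.086, 0.038 and -0.048, and with the total other than miR-122 the first and last were 0.19 and -0.095. Without scaling the first 2 were 0.15 and -0.044. Quantile normalization gave 0 for each, because the miR-122 probes are the 2 brightest on every array and take the same values by construction. With strict detection the first 2 were 0.11 and -0.12. Scaled on the hur_2 control spots, an alternative chosen after seeing the data, they were -0.20, -0.25 and -0.050. The 19-base probe alone gave 0.25 and 0.060 and the 20-base probe alone 0.44 and 0.22 for the comparisons with post-reproduction. Where no construction is named, the cause was not tested.

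The shares in late torpor, early arousal and post-reproduction were 49.5%, 48.0% and 46.1% without GC-rich or disputed entries, 45.8%, 44.0% and 40.8% with the brightest probe of each entry, and 34.1%, 32.1% and 30.9% with normexp. Most of the intensity left out with the GC-rich or disputed entries was that of miR-720. It held 4146 of 4574 units in late torpor, 3880 of 4679 in early arousal and 5320 of 5624 in post-reproduction. The sum over spots gave 43.8% in post-reproduction. The count of miRNAs past the rule of size in early arousal against post-reproduction was 10 with the all-probe percentile, against 5. That count too depends on the unequal floors. No paired analysis of samples was possible because each stage has 1 array. miR-122 lies far above background, so signal over background does not limit it. The single array per stage, the choice of scaling and the disagreement of its probes do.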

Other observations

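The spread between spots of a miR-122 probe was partly tied to the position on the array. For the 20-base probe the intensities at 10 shared positions correlated between arrays with r = 0.93 for early arousal and post-reproduction, 0.86 for late torpor and post-reproduction and 0.74 for early arousal and late torpor. For the 19-base probe, over 9 positions, r was -0.10, 0.81 and 0.030 in the same order. The positions share a slide layout and a scan, and these values are descriptions. The error that the scanner program deposited for each miR-122 spot was 10% of its intensity, while the observed spread of kept spots (coefficient of variation) ran from 2.10% for the 19-base probe in early arousal to 8.44% for the 20-base probe in late torpor.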
